A study of Mus musculus with 6 samples.

Results

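The genes described here are the Wnt ligands, their Frizzled and Lrp receptors, the secreted inhibitors of the Dkk, Sfrp and Wif families, and the central intracellular members Axin, beta-catenin (Ctnnb1) and the Tcf/Lef factors. They were chosen by gene name in the scanner files: a name beginning with Wnt, Fzd, Sfrp or Dkk and a digit, or one of a short list (Lrp5, Lrp6, Axin1, Axin2, Lef1, Tcf7, Tcf7l2, Ctnnb1 and Wif1). This gave 46 genes, measured by 66 probes, of 27845 gene names on the array. A gene was tested for change if, in either group, all 3 arrays showed one of its probes well above background, which left 33 of the 46 genes, of 16497 genes tested on the whole array. Tcf7l1, also on the list, has no probe under that name. The array's 2 probes named Tcf3 carry the accession that RefSeq now gives to Tcf7l1, and they are described apart from the 46.

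The RNA came from 6 cultures of primary keratinocytes, the epithelial cells of the skin surface, isolated together with hair follicle buds from the epidermis of newborn wild type mice. All 6 cultures, controls included, had been transduced by virus with v-ras-Ha, the oncogenic Ras of Harvey sarcoma virus, at 10 viral particles per cell. At 5 h after transduction, 3 cultures received Anakinra, a recombinant antagonist of the interleukin-1 receptor, at 5 ug/ml, and 3 received PBS. The antagonist was renewed on day 2 and RNA was taken 3 days into culture, so the comparison asks how blocking interleukin-1 signalling alters expression in keratinocytes that carry oncogenic Ras. No cells without v-ras-Ha were compared here, and nothing in the labels ties each culture to an animal or isolation of its own. The p-values below therefore reflect variation among these dishes, which may be technical.

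Wnt proteins are secreted lipid-modified ligands that bind a Frizzled receptor together with the co-receptor Lrp5 or Lrp6. In the canonical branch this binding stops the Axin complex from marking beta-catenin for destruction, and beta-catenin then acts in the nucleus with Tcf/Lef factors. Other ligands act through Frizzleds without beta-catenin, for example in planar cell polarity. Sfrp and Wif proteins bind the ligands themselves, whereas Dkk proteins bind the Lrp co-receptors. In skin, Wnt signalling is best known for starting hair follicles and for maintaining stem cells of the follicle and the interfollicular epidermis.

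Promoter sequence is shown for the ligands and the receptor with the smallest p-values whose promoters held a match (Wnt11, Wnt16 and Fzd1), and for Lef1, the Tcf/Lef factor with the largest difference. The 250 bases before each RefSeq transcription start (build GRCm38.p6) were searched on both strands for CTTTGA, a core of the Tcf/Lef binding sequence, and for the NF-kB consensus, since NF-kB lies downstream of the interleukin-1 receptor. RefSeq windows were found for 31 of the 46 genes, 40 windows in all, and some genes had several. Both Lef1 matches lay in the window at chr3:131156044-131156343. The Lef1 windows of other starts, beginning at 131110047, 131110073 and 131112541, held no match. Another Wnt11 window, at chr7:98838595-98838894, held none either. Positions are counted back from the transcription start. Each line gives 70 bases, 5′ to 3′ on the strand of the gene, with the match in capitals, which reads TCAAAG where CTTTGA lies on the other strand.
Wnt11, chr7:98835030-98835099, + strand, Tcf/Lef core match at position -50: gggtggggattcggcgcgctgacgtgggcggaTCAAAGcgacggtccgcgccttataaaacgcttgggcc
Wnt16, chr6:22288043-22288112, + strand, NF-kB consensus match at position -154: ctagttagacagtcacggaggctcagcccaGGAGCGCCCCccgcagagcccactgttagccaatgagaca
Fzd1, chr5:4758397-4758466, - strand, Tcf/Lef core match at position -242: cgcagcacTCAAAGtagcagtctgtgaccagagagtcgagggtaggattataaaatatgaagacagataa
Lef1, chr3:131156082-131156151, + strand, Tcf/Lef core match at position -180: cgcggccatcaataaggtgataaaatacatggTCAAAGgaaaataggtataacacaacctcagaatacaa
Lef1, chr3:131156142-131156211, + strand, Tcf/Lef core match at position -120: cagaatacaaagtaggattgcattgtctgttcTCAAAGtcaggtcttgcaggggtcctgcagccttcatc
The Tcf/Lef core lay in 5 of the 40 windows (12.5%), against 13.8% of 32851 RefSeq windows of the same length. The NF-kB consensus lay in 4 of the 40 windows (10.0%), against 7.25% of all windows. These matches describe letters only, and no binding was measured.

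None of the 33 tested genes of the set passed the test at an adjusted p under 0.05, where 1.77% of all tested genes did (292 of 16497, by limma with Benjamini-Hochberg adjustment over all of them). The 292 split into 160 genes higher with Anakinra and 132 lower, and scaling the arrays on their medians in place of the 75th percentile gave 8 and 49. At an unadjusted p under 0.05 the set held 11 genes, 8 higher and 3 lower with Anakinra, or 33.3% of those tested, against 16.1% of all tested genes. In 14 of the 33 (42.4%) the 3 values of one group all lay outside those of the other, 11 higher and 3 lower, against 26.1% of all tested genes. The median change of the 33 was 0.02 on the log2 scale, beside 0.01 for all tested genes, and 17 changes were positive and 16 negative. No member differed by more than 2-fold, and for 26 of the 33 the 95% interval of the change lay within 2-fold in either direction. The 7 whose interval reached past 2-fold were Wnt2, Wnt5a, Wnt5b, Wnt10b, Wnt11, Wnt16 and Sfrp1.

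**Figure D1:**
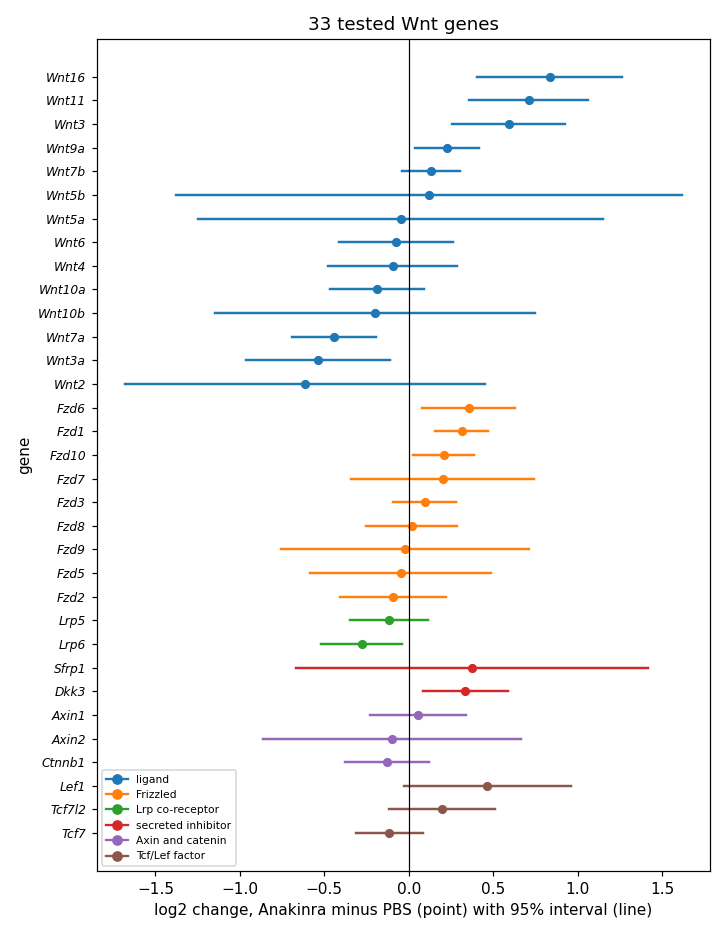
Change of the 33 tested Wnt genes, as the log2 level with Anakinra minus that with PBS (points) and its 95% interval from limma (lines, n = 3 cultures per group), coloured by role. The points run from -0.62 for Wnt2 to 0.84 for Wnt16, and intervals are widest for Wnt5b, Wnt5a and Wnt2.

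The Anakinra arrays were less alike than the PBS arrays, and the second Anakinra culture (Anakinra 2) stood apart most. On it 86.5% of probes were well above background, against 55.6% to 71.0% on the other 5 arrays, and 42 of the 46 Wnt genes were, against 31 to 38. Anakinra 1 and Anakinra 3 had the fewest such probes, 56.1% and 55.6%, against 62.5% to 71.0% with PBS. Very dim spots replaced by a surrogate value made up 30.1% and 28.3% on these arrays, against 12.4% to 19.9% with PBS. The limma array weights were 0.305 for Anakinra 2 and 0.346 for Anakinra 3, against 1.12 to 3.27 on the other arrays. Correlations between arrays ran from 0.995 to 0.997 among the PBS cultures and from 0.957 to 0.983 among the Anakinra cultures. Of the 33 tested Wnt genes 15 were highest on Anakinra 2, as were 35.8% of all tested genes. Of the 31 that were above background on all 6 arrays, 14 were, against 27.1% of all such genes. The share was 88.3% for tested genes dim on some array, and 1 of the 2 such Wnt genes was highest there. The arrays lay on 2 slides, each scanned apart and each holding both groups: PBS 2, PBS 3 and Anakinra 1 on the first, PBS 1, Anakinra 2 and Anakinra 3 on the second. Without Anakinra 2 no Wnt gene passed the test, 14 had an unadjusted p under 0.05, and the groups did not overlap in 22 of 33 (66.7%), against 44.1% of all tested genes. Groups of 2 and 3 arrays stay apart more easily than groups of 3 and 3. These shares are therefore not comparable with the 42.4% and 26.1% from all arrays. With the slide as a block none passed either, and the median change of the Wnt genes was -0.02.

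**Figure D2:**
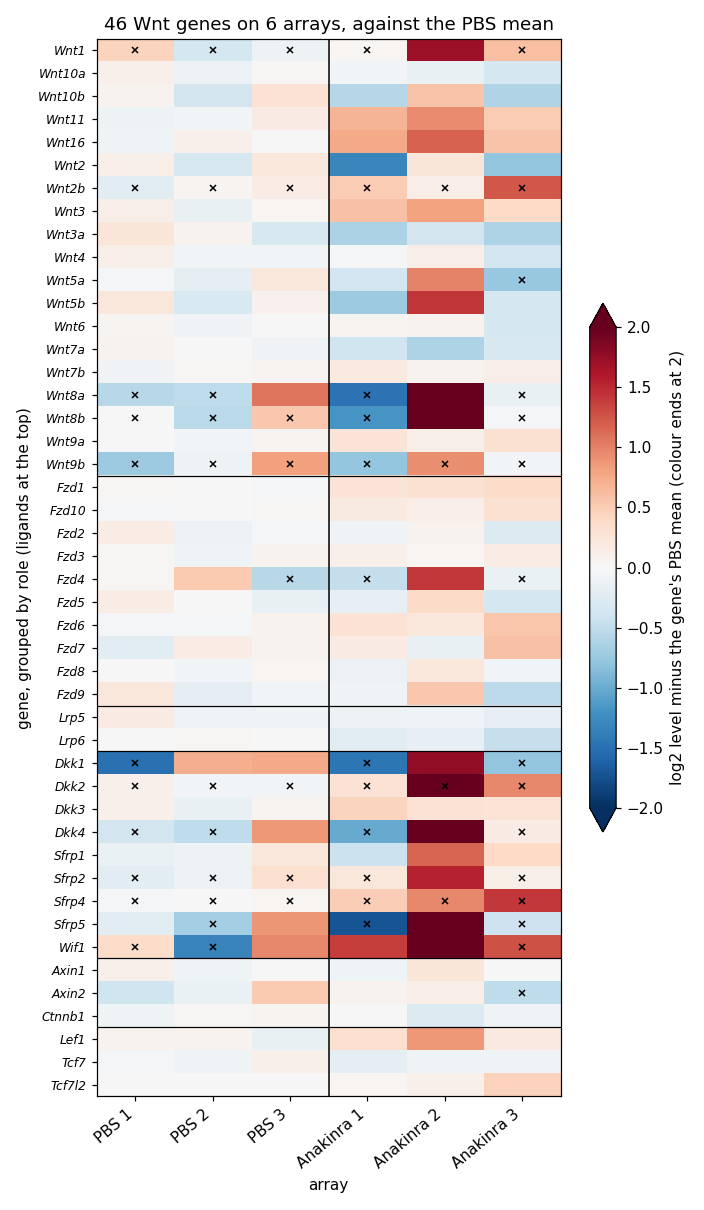
Log2 level of each of the 46 Wnt genes on each of the 6 arrays minus the gene's mean over the 3 PBS arrays, with genes grouped by role and colours ending at 2 in either direction. A cross marks a value not well above background, and Wnt8a, Wnt8b, Dkk2, Dkk4, Sfrp5 and Wif1 reach the end of the colour scale on Anakinra 2.

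Levels below are log2 intensities relative to the 75th percentile of the same array, so 0 marks that percentile. Because signal depends on the probe, levels are compared between arrays and never between genes. Each change is the Anakinra mean minus the PBS mean, ± SE.

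Among the ligands, 14 of 19 were tested. The largest positive difference was that of Wnt16, a ligand made by epidermal keratinocytes. Its levels were -3.31, -3.13 and -3.24 in the PBS cultures and -2.46, -2.05 and -2.66 with Anakinra. Every Anakinra culture was above every PBS culture, with Anakinra 2 the highest. The change was 0.84 ± 0.17 (n = 3 per group, 1.78-fold, 95% interval 0.41 to 1.26), with an adjusted p of 0.0958 by limma. It was 0.72 within the first slide, 0.95 within the second and 0.67 without Anakinra 2. The probe lies at chr6:22241090-22241149 of mm8, the build of the array design.

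Wnt11, a ligand known mainly for signalling without beta-catenin, showed the same order. Its levels were -2.64, -2.60 and -2.38 with PBS and -1.86, -1.60 and -2.04 with Anakinra, so the groups did not overlap. The change was 0.71 ± 0.14 (1.64-fold, 95% interval 0.36 to 1.06), and its adjusted p of 0.0923 by limma was the smallest in the set. Within the slides it was 0.64 and 0.82, and without Anakinra 2 it was 0.59. The Wnt11 probe lies at chr7:98728667-98728727 of mm8. Wnt11 and Wnt16 passed the test, with adjusted p of 0.0449 and 0.0468, when only genes above background on all 6 arrays were tested, and Wnt16 also passed with arrays weighted by quality (0.0433).

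Wnt3, a canonical ligand of the epidermis, stood at -0.78, -1.04 and -0.85 with PBS and at -0.31, -0.09 and -0.50 with Anakinra. The groups were again apart, with a change of 0.59 ± 0.13 and an adjusted p of 0.118 by limma. A second Wnt3 probe gave 0.55, and its levels were likewise apart. Within the slides the change was 0.63 and 0.49.

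Wnt7a ran the other way. This ligand, known from the dorsal ectoderm of the limb bud, stood at 1.34, 1.28 and 1.20 with PBS and at 0.88, 0.66 and 0.96 with Anakinra. All Anakinra values lay below all PBS values, and the change was -0.44 ± 0.10 with an adjusted p of 0.118 by limma (-0.36 and -0.53 within the slides). Wnt3a, a canonical ligand close in sequence to Wnt3, was also lower, at -2.66, -2.84 and -3.22 against -3.53, -3.28 and -3.52. Its change was -0.54 ± 0.17, with an adjusted p of 0.221 by limma. Wnt7b, the ligand closest to Wnt7a, differed by 0.13 ± 0.07 (95% interval -0.04 to 0.30), from 0.49, 0.57 and 0.60 to 0.75, 0.63 and 0.68, with groups that did not overlap.

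Wnt9a was at -0.21, -0.26 and -0.15 with PBS and at 0.05, -0.08 and 0.09 with Anakinra, a change of 0.23 ± 0.08 with an adjusted p of 0.245 by limma. Its second probe gave -0.25 with overlapping groups, so the direction of Wnt9a depended on the probe. Wnt9a lies beside Wnt3a, with probes 85.0 kb apart on chromosome 11 of mm8. Other neighbouring pairs among the ligands (Wnt6 and Wnt10a, Wnt9b and Wnt3, Wnt10b and Wnt1) lay 19.2 to 88.5 kb apart, and of the last-named pairs only Wnt3 and Wnt10b were tested.

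Wnt2 had the largest negative change, -0.62 ± 0.42, and a wide spread with Anakinra: -3.32, -3.75 and -3.21 with PBS against -4.73, -3.18 and -4.21. Without Anakinra 2 the change was -1.05 and without Anakinra 1 it was -0.27, and within the slides it was -1.25 and -0.38. Anakinra 2 lay above all PBS cultures and the other two Anakinra cultures below them. Wnt2 passed the test only with quantile scaling, at -0.93 and an adjusted p of 0.0257 by limma, and it is described because of that value. The 6 remaining tested ligands were Wnt4, Wnt5a, Wnt5b, Wnt6, Wnt10a and Wnt10b. Their changes lay between -0.20 and 0.12, with overlapping groups and adjusted p of 0.479 to 0.982 by limma. Wnt5a and Wnt5b, classic ligands of the branch without beta-catenin, had SE of 0.48 and 0.59, as Anakinra 2 stood at -2.99 and -2.31 against -4.38 and -4.74, and -4.47 and -4.08, on the other Anakinra arrays.

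**Figure D3:**
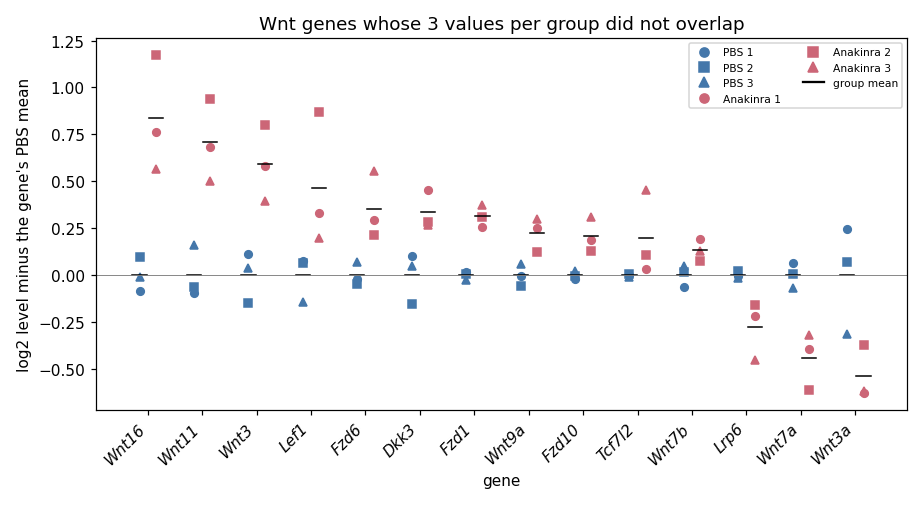
The 14 Wnt genes whose 3 PBS values (blue) and 3 Anakinra values (red) did not overlap, as the log2 level minus the gene's PBS mean, with 1 point per culture and a bar at each group mean. Wnt16, Wnt11 and Wnt3 lie highest and Wnt3a lowest, and Anakinra 2 is the highest culture for the first 4 genes.

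Of the 10 Frizzled receptors, 9 were tested, all above background on every array. Fzd1 had the smallest SE in the set, and stood at 0.80, 0.79 and 0.76 with PBS and at 1.04, 1.09 and 1.16 with Anakinra. The groups did not overlap, and the change was 0.31 ± 0.06 (1.24-fold, 95% interval 0.15 to 0.47) with an adjusted p of 0.0934 by limma. Within the slides it was 0.26 and 0.32. Its probe lies at chr5:4760009-4760068 of mm8. Fzd6, a receptor with a known role in hair orientation through planar cell polarity, stood at 0.63, 0.61 and 0.72 against 0.95, 0.86 and 1.21. Its groups were apart, and it differed by 0.35 ± 0.11, with an adjusted p of 0.213 by limma. Fzd10 stood at -0.42, -0.40 and -0.38 against -0.21, -0.27 and -0.09, a change of 0.21 ± 0.07, whereas its second probe gave -0.12. Fzd3 differed by 0.09 ± 0.07 with overlapping groups, from -2.99, -3.10 and -2.93 to -2.91, -2.97 and -2.86, and a second probe gave -0.07. The array's probe named D930050A07Rik, which RefSeq assigns to Fzd3, gave 0.27. Changes of the 5 other tested receptors (Fzd2, Fzd5, Fzd7, Fzd8 and Fzd9) lay between -0.09 and 0.20, with adjusted p of 0.714 to 0.986. A second probe for Fzd2 gave 0.37, against -0.09 for the probe that stands for the gene. Its groups overlapped, with Anakinra 3 at -2.14 and the other Anakinra cultures at -2.94 and -3.00. On the median-scaled arrays the median of all tested genes moved from 0.01 to -0.32, and Fzd1 (-0.02) and Fzd10 (-0.12) took a negative sign. Measured against that median, Fzd1 was at 0.30 under both scalings, which holds by construction, as each subtracts 1 constant per array.

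Both co-receptors were lower by their means. Lrp6 was at -2.65, -2.62 and -2.65 with PBS and at -2.86, -2.80 and -3.09 with Anakinra, so the groups were apart. It differed by -0.28 ± 0.10, with an adjusted p of 0.251 by limma, and the array's probe named C030016K15Rik, which RefSeq assigns to Lrp6, gave -0.31. Lrp5 differed by -0.12 ± 0.09, from 0.78, 0.54 and 0.52 to 0.51, 0.53 and 0.46, with overlapping groups.

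The secreted inhibitors were the least detected group: 2 of 9 were tested. Dkk3, a divergent member of the Dkk family, was at 0.65, 0.39 and 0.59 with PBS and at 0.996, 0.83 and 0.81 with Anakinra. The groups did not overlap, and the change was 0.34 ± 0.10 with an adjusted p of 0.204 by limma. It was 0.50 within the first slide and 0.17 within the second. Sfrp1 differed by 0.38 ± 0.41, from -3.61, -3.59 and -3.26 to -3.92, -2.33 and -3.09, and the Anakinra cultures lay on both sides of the PBS cultures. Its change was -0.02 without Anakinra 2, and its second probe gave -0.02 on all arrays.

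Dkk2 and Sfrp4, like the ligands Wnt2b and Wnt9b, were above background on no array. The other 5 untested inhibitors (Dkk1, Dkk4, Sfrp2, Sfrp5 and Wif1) were above background on some arrays, as were Wnt1, Wnt8a, Wnt8b and Fzd4. All 9 of these were above background on Anakinra 2, and their highest value was on that array. Dkk1, the best known Lrp inhibitor, was above background on PBS 2, PBS 3 and Anakinra 2. Wif1 was above background on PBS 3, Anakinra 1 and Anakinra 2. No change is given for the 13 untested genes.

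For both Axins, and for beta-catenin by the probe that stands for it, the groups overlapped. Ctnnb1, which encodes beta-catenin, stood at 4.26, 4.38 and 4.41 with PBS and at 4.34, 4.06 and 4.28 with Anakinra. Its change was -0.13 ± 0.10 (95% interval -0.38 to 0.12), and its other probes gave 0.05 and 0.22. The last of these was above background on all arrays and had groups apart, with every Anakinra value above every PBS value. Axin1, the scaffold of the destruction complex, differed by 0.05 ± 0.11, from -0.18, -0.37 and -0.30 to -0.36, -0.04 and -0.29. Axin2, a direct target of beta-catenin widely used as a readout of canonical signalling, stood at -5.67, -5.40 and -4.74 against -5.19, -5.13 and -5.78. These are dim signals, above background on 3 PBS and 2 Anakinra arrays, and the change was -0.10 ± 0.30 with a 95% interval of -0.86 to 0.66.

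Among the Tcf/Lef factors, Lef1 had the largest difference. It stood at -4.54, -4.55 and -4.75 with PBS and at -4.28, -3.74 and -4.42 with Anakinra, so the groups were apart, with Anakinra 2 the highest. Its change was 0.46 ± 0.20 with an adjusted p of 0.339 by limma, and it was 0.26 without Anakinra 2. Without Anakinra 1 it was 1.10, as another probe then had the highest mean and stood for the gene. That probe gave 0.41 on all arrays, and the remaining Lef1 probe was above background on only 1 array of each group. Tcf7l2 stood at -0.46, -0.46 and -0.47 against -0.43, -0.36 and -0.01, a change of 0.20 ± 0.12 with groups just apart and Anakinra 3 well above the rest. Its other probes gave -0.13, 0.29 and 0.36, the last of them not above background on every array. Tcf7 differed by -0.12 ± 0.08, from -2.11, -2.17 and -1.99 to -2.28, -2.17 and -2.16, and its second probe gave -0.29 with groups apart. The array's Tcf3 probe, which by accession is Tcf7l1, differed by -0.13 ± 0.10 with an adjusted p of 0.603 by limma.

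The wider pathway was described with a list of 80 other genes, of which 79 had a probe and 69 were tested. Only Sostdc1 passed, and it was higher; none was lower, beside 0.97% of all tested genes called higher and 0.80% called lower. The median change of the 69 was 0.07, and the groups were apart in 14 genes upward and 5 downward, where 12.4% of all tested genes were apart upward and 13.7% downward. Sostdc1, a secreted antagonist of both BMP and Wnt signals, stood at 0.32, 0.14 and 0.60 with PBS and at 1.72, 1.79 and 1.51 with Anakinra. Every Anakinra culture lay above every PBS culture. The change was 1.32 ± 0.15 (2.50-fold), with an adjusted p of 0.0229 by limma. It was 1.35 within the first slide and 1.33 within the second, but the adjusted p was 0.0927 with the slide as a block and 0.0505 to 0.152 when any 1 culture was left out (changes of 1.22 to 1.44).

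Dkkl1, a secreted relative of the Dkk proteins, stood at -1.54, -1.68 and -1.60 with PBS and at -0.84, -0.74 and -1.10 with Anakinra. Its change of 0.71 ± 0.11 missed the threshold at an adjusted p of 0.0568 by limma. It was below 0.05 without Anakinra 3, with quantile scaling, after normexp background correction and under 3 other settings. The 4 tested genes listed as other secreted antagonists, Sostdc1, Dkkl1, Notum and Sost, all had positive changes, with a median of 0.84. The groups were apart in 2 of them, Sostdc1 and Dkkl1, and overlapped for Notum and Sost. Notum, a secreted enzyme that removes the lipid from Wnts, was at 0.96 ± 0.81, and at 0.46 without Anakinra 2 and -0.87 within the first slide. Sost, a secreted inhibitor that binds Lrp5 and Lrp6, was at 0.29 ± 0.54, and at -0.30 without Anakinra 2 and -0.51 within the first slide.

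No gene of the other lists passed. A list of 14 genes joined the branch without beta-catenin with co-receptors, among them Kremen1 and Kremen2. Of the 14, 11 were positive, as were 52.3% of all tested genes. In 4 the groups were apart upward, as in 12.4% of all tested genes. Prickle2, a planar polarity protein, differed by 0.75 ± 0.13 with an adjusted p of 0.076 by limma, and Daam1, a formin of the same branch, by 0.43 ± 0.12. Of the genes of Wnt production and R-spondin signalling, the receptor Lgr6 differed by 0.61 ± 0.21, the Wnt transporter Wls by 0.16 ± 0.07 and the acyltransferase Porcn by -0.20 ± 0.09. The 22 tested genes of the intracellular chain had a median of -0.04. Gsk3a and Gsk3b, the kinases that phosphorylate beta-catenin, differed by -0.15 ± 0.06 and -0.23 ± 0.13, and the Dishevelled-binding Dact2 by 0.49 ± 0.10. Among 12 nuclear partners the median was 0.08, with the corepressor Tle3 at 0.29 ± 0.08. Among 11 tested genes listed as direct targets the median was 0.06 and 7 were positive. Ccn4 (Wisp1 on the array) was at 0.48 ± 0.11, the transcriptional repressor Prdm1 at 0.37 ± 0.11, the Notch ligand Jag1 at 0.32 ± 0.19 and the growth gene Myc at -0.11 ± 0.06. Groups were apart for Ccn4, Prdm1 and Myc.

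**Figure D4:**
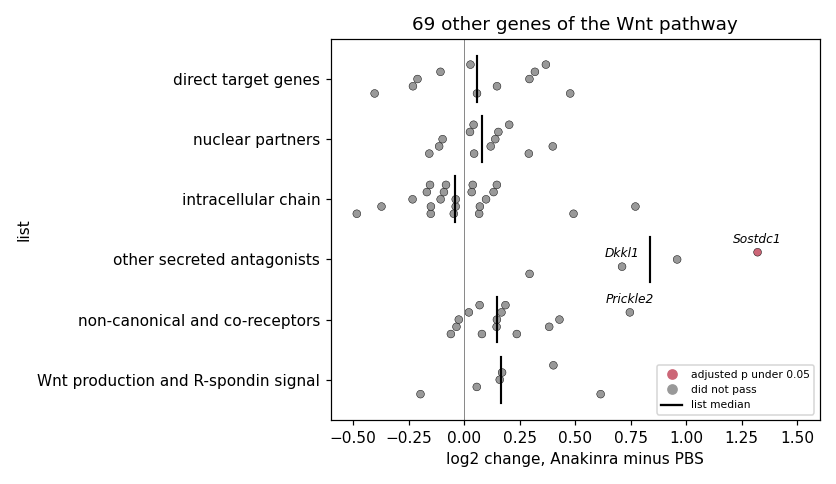
Change of the 69 other tested genes of the Wnt pathway by list, as the log2 level with Anakinra minus that with PBS, with 1 point per gene and a bar at the list median. Sostdc1, at 1.32, is the only gene with an adjusted p under 0.05, and the list medians run from -0.04 for the intracellular chain to 0.84 for the other secreted antagonists.

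Cell type markers were read on the same arrays, since several cell types of the skin make Wnt proteins. Keratinocyte identity was plain: Krt5 stood at 8.72 to 9.04 and Krt14 at 8.80 to 9.03 on all arrays, and none of 10 keratinocyte markers passed the test. Suprabasal markers moved with the treatment. Of 10 tested, 8 passed the test as higher with Anakinra, where 0.97% of all tested genes did. All 10 had groups apart upward, as did 12.4% of all tested genes. The median was 1.03, with Krt1 and Krt10, keratins of the differentiating layers, at 2.35 and 2.40. The summed linear level of the 10 was 341 to 383 with PBS and 483 to 577 with Anakinra. Of 12 tested fibroblast markers of 13, 2 passed as higher (Lum at 1.43 and Col3a1 at 0.95). Changes were positive for 11 of the 12 (median 0.32), with groups apart upward in 6 and downward in 1 (Dcn at -0.38). The summed level of the 12 was 9.66 to 11.9 with PBS and 12.3 to 14.4 with Anakinra. Mfap5 was the fibroblast marker that was not tested.

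For the dermal papilla, the mesenchyme at the base of the follicle, 5 of 10 markers were tested and none passed; Alx4, Hhip, Tbx18, Corin and Fgf10 were not tested. The median was 0.16, with Vcan at 0.45, Crabp1 at 0.29, Prom1 at 0.16, Sox2 at -0.03 and Fgf7 at -1.38. Groups were apart upward for Vcan and Crabp1, and overlapped for the others. Fgf7 had an SE of 0.72, with Anakinra levels of -5.66, -2.90 and -4.87. Sox2 and Fgf7 each cleared the background in 1 Anakinra culture, against 3 PBS cultures. The summed level of the 5 tested markers, to which Crabp1 gave the most, was 3.88 to 4.48 with PBS and 4.55 to 6.16 with Anakinra. Of 10 tested markers of follicle epithelium, 2 passed as higher (Krt79 and Dlx3), 5 had positive changes and the median was 0.03. The summed level of the 10 was 424 to 510 with PBS and 435 to 460 with Anakinra. All 10 melanocyte markers had positive changes (median 0.24, none passing), as did 52.3% of all tested genes. Groups were apart upward in 6 of them, against 12.4% of all tested genes. Their summed levels were 92.4 to 111 with PBS and 107 to 116 with Anakinra. Endothelial markers (4 of 7 tested, median -0.27) and immune markers (6 of 9 tested, median 0.04, and -0.25 without Anakinra 2) held no gene that passed. Their summed levels were 2.11 to 2.25 and 3.82 to 4.30 with PBS, and 1.70 to 2.02 and 3.93 to 4.11 with Anakinra. Groups were apart downward in 2 endothelial markers and 1 immune marker, against 13.7% of all tested genes, and upward in none. Cdh5, Tek and Emcn of the first list and Ptprc, Cd3e and Itgam of the second were not tested. In these bulk cultures a change in the number of cells of a type and a change in RNA per cell cannot be told apart, and the part of these shifts in the values of the Wnt genes was not tested.

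The leading genes kept their sign under most ways of processing the arrays. Over 18 alternatives, Wnt16 ranged from 0.51 to 0.97, Wnt11 from 0.38 to 0.82, Wnt3 from 0.26 to 0.69 and Wnt7a from -0.77 to -0.36, each with a single sign. Fzd1 ranged from -0.02 to 0.37 and was positive in 17 of 18. Fzd6 (0.02 to 0.43) and Dkk3 (0.01 to 0.50) were positive in all 18, with their lowest values under median scaling.

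**Figure D5:**
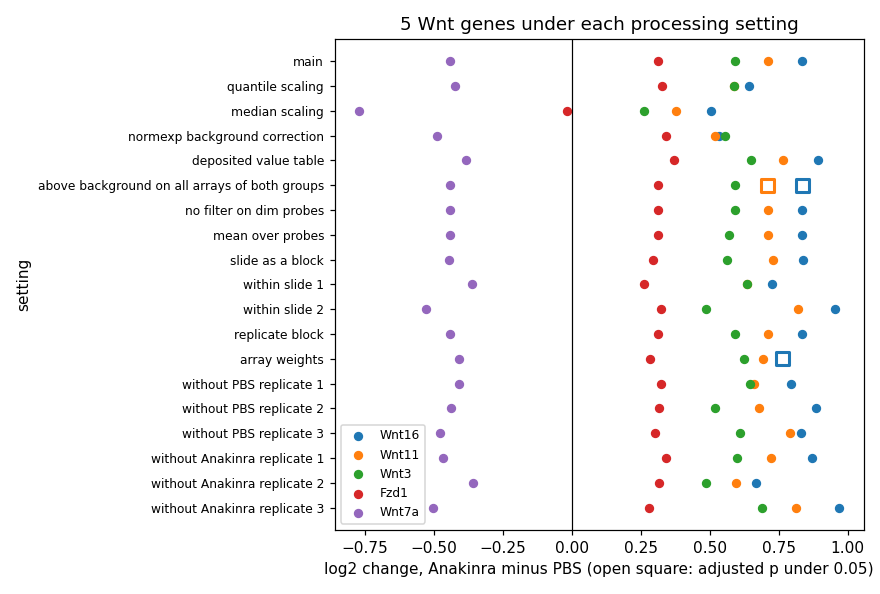
Change of Wnt16, Wnt11, Wnt3, Fzd1 and Wnt7a under the processing used here (top) and under 18 alternatives, as the log2 level with Anakinra minus that with PBS, with open squares where the adjusted p was under 0.05. Wnt16 and Wnt11 pass when only genes above background on all arrays are tested, Wnt16 also with array weights, and none of the 5 passes elsewhere.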

How the data were processed

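RNA of 6 cultures was measured on Agilent one-colour arrays, 1 per culture. Per the file headers, the deposited intensities were read with Agilent Feature Extraction 9.5.3.1 (also named in the submitters' processing notes), which subtracted background and detrended each array and replaced very dim spots by a surrogate. The authors' value table holds log2 intensities that equal the log2 of the processed signal plus a constant per array, within 0.001 by rounding; the choice of constant is not stated in any source used here. Its column medians were 5.77, 5.83 and 6.22 (PBS) and 5.74, 7.00 and 6.21 (Anakinra), and it served as an alternative.

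Control spots and outlier-flagged spots were left out, the log2 processed signal was scaled to each array's 75th percentile (864 to 1087 intensity units), and spots of a probe were averaged. A probe entered if well above background on all 3 arrays of a group. The probe with the highest mean stood for a gene. Groups were compared with limma 3.58.1 in R 4.3.3 (lmFit, eBayes, two-sided), tested on simulated data. P-values were adjusted over all genes, and 95% intervals come from the same fit. Genes were named through RefSeq (GRCm38.p6): 23374 probes by accession, 6733 by symbol and 2919 by synonym, while 8148 kept the file's name, and for all 66 probes of the Wnt set both names were the same. Members, lists and tests were chosen with earlier results of these data known. Values per culture are given for genes past the threshold or with non-overlapping groups and for the 4 smallest p-values of each role. In the other pathway lists, genes past the threshold and the 4 smallest p-values of each list qualified for naming, and Wnt2 in the set was added after its values were seen, as were single members of the marker lists. Depth is not defined for arrays, and 3 arrays per group limit the precision.

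For same-numbered cultures, the correlations of deviations from the group means were 0.41, -0.49 and -0.21. The highest of any combination, 0.70, was between PBS 3 and Anakinra 2. These arrays had the most probes above background in their groups (71.0% and 86.5%). Such correlations also carry array-wide differences in signal, so they cannot decide whether the numbers mark pairs. Alternatives covered scaling, background correction, probe filters, probe choice, slide, replicate number, array weights and leaving out each array.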

Additional observations from a re-analysis of the deposited data

How the results depend on the processing

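No Wnt gene passed under the other settings or when any 1 culture was left out, apart from Wnt2 with quantile scaling (1 lower), Wnt11 and Wnt16 among genes above background on all 6 arrays (2 higher) and Wnt16 with array weights (1 higher). Over all tested genes, calls higher and lower numbered 8 and 49 with median scaling, 338 and 240 for genes above background on all arrays of both groups, 7 and 29 with no filter on dim probes, 18 and 35 with the slide as a block, and 0 and 0 within either slide. With the replicate number as a block, 0 genes were called higher and 0 lower, and so 0 other pathway genes. Whether the numbers mark pairs of cultures is not known. Leaving out 1 culture gave 1 to 97 higher and 7 to 137 lower. Of the other pathway genes, 2 were called higher with quantile scaling and 2 with normexp, 3 each with the deposited values, the stricter filter and array weights, 0 with median scaling, no filter, the slide block and within slides, and 0 to 1 when a culture was left out.

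The median change of the Wnt genes was -0.31 with median scaling (all genes -0.32), 0.13 with no filter and -0.084 to 0.094 when a culture was left out. Median scaling gave marker medians of -0.17 (dermal papilla), -0.60 (endothelial), -0.010 (fibroblast), -0.30 (follicle epithelium), -0.20 (keratinocyte), -0.094 (melanocyte) and 0.70 (suprabasal). Quantile scaling gave -0.20 for dermal papilla and -0.44 for endothelial markers. No filter gave 0.12 for endothelial and 0.11 for follicle markers. The keratinocyte median was 0.19 with the deposited values and 0.036 within the second slide. Leaving out a culture moved dermal papilla from -0.28 to 0.42, endothelial from -0.33 to -0.017 and follicle markers from -0.055 to 0.11. The immune median was -0.29 with median scaling, -0.38 and 0.40 within the slides, and -0.25 to 0.31 when a culture was left out.

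Signs reversed with median scaling, below a median of all genes that itself fell to -0.32, for Axin1 (-0.28), Fzd1 (-0.017), Fzd10 (-0.12), Fzd3 (-0.24), Tcf7l2 (-0.13), Wnt7b (-0.20), Wnt9a (-0.10), Jag1 (-0.011), Celsr2 (-0.14), Vangl1 (-0.18), Tle3 (-0.039), Tle1 (-0.18), Sost (-0.035) and Wls (-0.17). Fzd3 reversed with quantile scaling (-0.27) and normexp (-0.018), and Ctnnb1 (0.048) and Wnt9a (-0.011) with the mean over probes. Axin1 (-0.0067) and Axin2 (0.044) reversed with the slide as a block, Axin1 (-0.028), Sfrp1 (-0.50), Notum (-0.87) and Sost (-0.51) within the first slide, Axin2 (0.21) within the second, and Sfrp1 (-0.036) and Sost (-0.078) with array weights. Without Anakinra 2, Axin1 was -0.045, Sfrp1 -0.016 and Sost -0.30. Without Anakinra 1, Sfrp1 was 0.78 and Sost 0.66, and both were highest within the second slide, at 0.91 and 0.80. Axin2 was 0.16 without PBS 3 and 0.11 without Anakinra 3. None of these genes had passed the test. Both scalings subtract 1 constant per array, so the distance of each gene from the median of all genes is the same by construction. The reversals with median scaling therefore follow the shift of all genes, and the cause of the others was not tested. Signal over background limits Axin2, Wnt5a and the 13 untested genes most.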
